A study of Mus musculus with 6 samples.

Results

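Genes that encode inhibitory ligands were examined in subcutaneous CT26.WT tumors, namely Cd274, Pdcd1lg2, Pvr, Nectin2, Lgals9, Ceacam1, Tnfrsf14, Cd47, Cd200 and Fgl2. They were chosen by symbol, and the 10 genes were found once each among the 55487 genes of the count table. RNA was sequenced from 6 tumors, 3 in the control group and 3 in the IFN-γ stimulation group (the stimulated tumors). CT26.WT is a colon carcinoma cell line derived from BALB/c mice and was implanted in young male immunocompetent BALB/c mice with no engineered allele. The IFN-γ group received repeated IFN-γ by the tail vein and the control group received PBS by the same route. The comparison asked which transcripts differed between tumors with and without IFN-γ treatment of the host. Each library is bulk tumor tissue, so a ligand can come from the carcinoma cells or from the leukocytes, vessels and stroma among them, and fewer cells of a type cannot be told apart from less RNA per cell.

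Inhibitory ligands are displayed by tumor cells and myeloid cells and engage receptors that restrain T cells, natural killer cells or phagocytes. PD-L1 (Cd274) and PD-L2 (Pdcd1lg2) bind PD-1 on T cells. PVR and nectin-2 bind the inhibitory receptor TIGIT, which competes for them with the activating receptor CD226. Galectin-9 (Lgals9) and CEACAM1 have been described as partners of TIM-3, the product of Havcr2. HVEM (Tnfrsf14) binds the inhibitory receptors BTLA and CD160, whereas its binding of LIGHT (Tnfsf14) is costimulatory. CD47 restrains phagocytosis through SIRPα, CD200 restrains myeloid cells through its receptor CD200R1, and FGL2 acts through the inhibitory Fc receptor encoded by Fcgr2b. IFN-γ signals through JAK kinases and, at its target genes, through GAS elements and the transcription factor IRF1, and Cd274 is a well-known target of this pathway.

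Promoter sequences were taken from RefSeq (GRCm38.p6) for 9 of the 10 genes, all except Pvr. The 250 bases before the RefSeq start of each gene were searched on both strands for the letters GAAANNGAAA, an IRF element, and TTCNNNGAA, a GAS element that reads the same on both strands. The IRF letters were found in 2 of the 9 genes, Lgals9 and Tnfrsf14, and in 2.98% of 32851 promoters of the same length. The GAS letters were found in 1 of the 9, Fgl2, and in 7.02% of promoters. The sequences printed here belong to Ceacam1, Fgl2 and Cd274 and to the 2 ligands with the IRF letters. Ceacam1, Fgl2 and Cd274 had the largest log2 fold changes of the 10 ligands in all 6 tumors, regardless of direction. In Cd274 (chr19:29367188-29367437, plus strand) and Ceacam1 (chr7:25477626-25477875, minus strand), neither motif was present. Capitals mark each GAAA or TTTC there, of which Cd274 held 4 and Ceacam1 held 2. In Fgl2 (chr5:21372423-21372647, plus strand), capitals mark the GAS letters, which lie 36 to 28 bases before the start in RefSeq. In Tnfrsf14 (chr4:154928122-154928151, minus strand) and Lgals9 (chr11:78984960-78984989, minus strand), only the IRF letters and 10 bases on each side are printed, with the match in capitals. RefSeq and GENCODE, the source of the gene spans given with each ligand, do not place every start alike. The GENCODE span of Tnfrsf14 begins 486 bases upstream of the RefSeq start, so its IRF letters lie inside that span, in an exon of another transcript. For Fgl2 it begins 31 bases upstream, so 4 of the bases with the GAS letters lie inside it, and for Lgals9 the IRF letters lie outside it. A match describes the letters only and not the binding of a factor.
Cd274: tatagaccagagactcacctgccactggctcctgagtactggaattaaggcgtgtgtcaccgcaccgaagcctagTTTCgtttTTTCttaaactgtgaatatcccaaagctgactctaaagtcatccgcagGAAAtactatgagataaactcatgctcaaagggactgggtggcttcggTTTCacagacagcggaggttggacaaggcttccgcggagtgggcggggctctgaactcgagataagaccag
Ceacam1: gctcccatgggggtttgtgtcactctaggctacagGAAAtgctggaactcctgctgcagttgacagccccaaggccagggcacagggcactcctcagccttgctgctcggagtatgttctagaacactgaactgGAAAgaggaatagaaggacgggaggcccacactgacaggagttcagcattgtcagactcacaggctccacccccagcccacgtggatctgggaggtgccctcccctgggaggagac
Fgl2: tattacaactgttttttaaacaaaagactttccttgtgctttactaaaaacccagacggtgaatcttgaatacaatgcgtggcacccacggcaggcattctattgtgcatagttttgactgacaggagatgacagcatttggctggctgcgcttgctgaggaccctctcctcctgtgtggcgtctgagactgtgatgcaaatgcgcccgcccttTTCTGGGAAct
Tnfrsf14: ctattttttcTTTCATTTTCacttttcctt
Lgals9: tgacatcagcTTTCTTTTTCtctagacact

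Total counts on genes ran from 15759300 to 17559680 per tumor, so 3 counts correspond to between 0.169 and 0.188 CPM (counts scaled by TMM to a common library size), and every ligand lay far above this in every tumor. Stimulated tumor 3 stood apart from the other tumors of its group. The correlation of log2 CPM was 0.993 between stimulated tumors 1 and 2, the highest of any pair. Stimulated tumor 3 correlated with these tumors at 0.985 and 0.982, and with the other 5 tumors at 0.982 to 0.989. The lowest r of any pair was 0.980, between control tumor 1 and stimulated tumor 2. The summed level of 8 macrophage markers was 5032 and 6125 CPM in stimulated tumors 1 and 2 and 3671 CPM in stimulated tumor 3, against 3343 to 4019 CPM in the controls. For 7 T cell markers the sums were 92.5, 107 and 36.9 CPM against 43.9 to 67.6 CPM. For 6 keratinocyte markers they were 9.17, 9.22 and 72.0 CPM against 6.93 to 14.3 CPM. Of the defining genes of colon epithelium, Cdx2 had 0 counts in all 6 tumors and Epcam did not exceed 0.928 CPM, whereas Krt20 reached 113 to 271 CPM, so the epithelial label rests on few markers. The results are therefore given for all 6 tumors and without stimulated tumor 3. That tumor was singled out from these same data, so adjusted p-values without it depend on this choice. No ligand passed in edgeR when any other single tumor was left out.

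In all 6 tumors, none of the 10 ligands passed the adjusted threshold of 0.05 in edgeR's quasi-likelihood test, where 17 of 15114 genes passed (0.112%). At an unadjusted p under 0.05 there were 2, Ceacam1 and Pvr, against 10.2% of genes in either direction. Both were lower in the IFN-γ group, against 4.44% of genes in that direction. DESeq2 called 1 of the 10, Ceacam1, where 1.33% of genes passed and 0.509% passed as lower. The edgeR fit with no filter on low counts also called Ceacam1 alone, where 0.819% passed, and limma-voom called 0. Groups did not overlap for 2 of the 10, Ceacam1 and Cd47, and for 15.1% of genes tested. Without stimulated tumor 3, edgeR called 4 of the 10, where 3.18% of 15487 genes passed in either direction. Cd274 and Fgl2 were higher, against 2.46% of genes, and Pvr and Ceacam1 were lower, against 0.723%. Stimulated tumor 3 lay within the range of the controls for 6 of the 10 ligands and for 40.9% of genes tested. The calls thus went in both directions. The ligands' median log2 fold change was 0.052 in all 6 tumors, 5 of the 10 being above 0, and the median over all genes tested was 0.0015. The median size of the change regardless of direction was 0.49 for the 10 ligands and 0.12 for all genes tested.

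**Figure D1:**
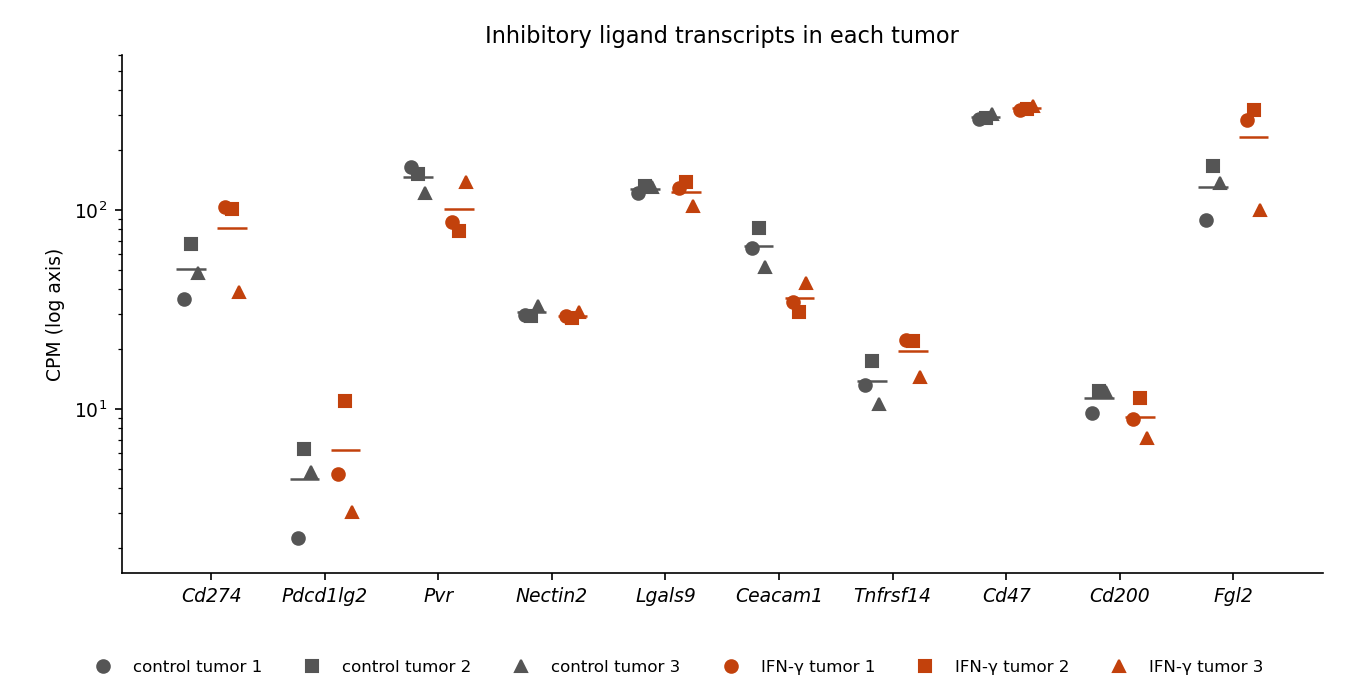
CPM of each ligand (log axis) in the control tumors (grey) and IFN-γ tumors (orange), with the marker shape giving the tumor number and the short lines the group means. For Cd274 and Fgl2, the circle and square of IFN-γ (tumors 1 and 2) sit above the controls and the third IFN-γ tumor among them, and Ceacam1 and Cd47 are the genes whose groups do not overlap.

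Among the ligands of PD-1, Cd274 was higher than in every control in stimulated tumors 1 and 2 and within the control range in stimulated tumor 3. Cd274 (ENSMUSG00000016496, chr19:29367455-29388095 of GRCm38, plus strand) was at 35.7, 67.4 and 48.5 CPM in control tumors 1, 2 and 3. It was at 104, 101 and 38.8 CPM in stimulated tumors 1, 2 and 3. The groups overlapped, because stimulated tumor 3 lay between control tumors 1 and 3. The log2 fold change was 0.69 ± 0.36 (SE, edgeR adjusted p = 0.565) in all 6 tumors. It was 1.01 ± 0.21 (SE, edgeR adjusted p = 0.0398), or 2.02-fold, without stimulated tumor 3. The adjusted p of Cd274 lay between 0.0398 and 0.905 over the alternatives run. Exons of Cd274 share 511 bases with an antisense gene, which had at most 2 counts in any tumor.
Pdcd1lg2, the other ligand of PD-1 and the neighbor of Cd274 on the chromosome (ENSMUSG00000016498, chr19:29410919-29471161, plus strand), was the least abundant of the 10. Its counts were 36, 111 and 84 for control tumors 1 to 3, and 81, 179 and 49 for the stimulated tumors. These correspond to 2.25, 6.26 and 4.80 CPM and to 4.70, 10.9 and 3.03 CPM. The tumors with the most Pdcd1lg2 carried the number 2 in both groups, and the groups overlapped widely. The log2 fold change of 0.48 ± 0.50 (SE, edgeR adjusted p = 0.807) was smaller than its error and turned to -0.20 without stimulated tumor 2.
Pdcd1, which encodes PD-1 itself, was at 6.50, 9.81 and 7.09 CPM in the controls and at 15.8, 14.5 and 8.29 CPM in the stimulated tumors, again with stimulated tumor 3 within the control range. It passed the threshold without stimulated tumor 3 (log2 fold change 0.95, edgeR adjusted p = 0.0407) and not in all 6 tumors (0.72, edgeR adjusted p = 0.402). Rgmb, a partner of PD-L2, was higher in each stimulated tumor than in each control, as in 7.62% of genes tested for this direction. It was at 99.5, 104 and 119 CPM against 74.2, 83.7 and 84.2 CPM. Its log2 fold change of 0.41 did not pass in edgeR (adjusted p = 0.222) and passed in DESeq2 (adjusted p = 0.0298). Cd80, a costimulatory molecule that also binds PD-L1 on the same cell, was at 19.6 to 22.1 CPM in the controls and at 18.1 to 18.7 CPM in the stimulated tumors (log2 fold change -0.18, edgeR adjusted p = 0.607).

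Of the 2 nectin-family ligands of TIGIT, Pvr was lower in stimulated tumors 1 and 2 and Nectin2 stayed within a narrow range. Pvr (ENSMUSG00000040511, chr7:19903578-19921160, minus strand), the receptor that poliovirus uses in humans and a ligand for TIGIT, CD226 and CD96, was at 164, 152 and 122 CPM in the controls. It was at 87.0, 78.1 and 138 CPM in the stimulated tumors. As with Cd274, stimulated tumor 3 fell within the control range, although the direction of the other tumors was the opposite. The log2 fold change was -0.53 ± 0.21 (SE, edgeR adjusted p = 0.437) in all 6 tumors and -0.83 ± 0.13 (SE, edgeR adjusted p = 0.0184) without stimulated tumor 3. The adjusted p of Pvr lay between 0.0184 and 0.838 over the alternatives.
Nectin2 (ENSMUSG00000062300, chr7:19716644-19750483, minus strand) was at 29.8, 29.2 and 32.9 CPM in the controls and at 29.3, 28.5 and 30.5 CPM in the stimulated tumors. This was the smallest spread of the 10 ligands within the IFN-γ group save for Cd47, with the highest tumor 1.07 times the lowest. Between the groups it differed by a log2 fold change of -0.055 ± 0.089 (SE, edgeR adjusted p = 0.879). Exons of Nectin2 share 135 bases with an antisense gene that had at most 6 counts in a tumor.
The receptors of this pair were low. Tigit was at 14.4, 15.8 and 14.2 CPM in the controls and at 11.8, 13.4 and 15.3 CPM in the stimulated tumors. Cd226 did not exceed 6.69 CPM in the controls and was at 6.56, 10.1 and 3.46 CPM in the stimulated tumors. Cd96 and Pvrig, the receptor of nectin-2, did not exceed 4.95 and 3.60 CPM. None of the 4 receptors passed the threshold with all 6 tumors or without stimulated tumor 3.

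The 2 partners of TIM-3 also differed from each other. Ceacam1 (ENSMUSG00000074272, chr7:25461707-25477603, minus strand), an adhesion molecule of epithelial cells and activated lymphocytes that also binds itself, was at 64.6, 80.7 and 51.7 CPM in the controls. It was at 34.5, 30.6 and 43.0 CPM in the stimulated tumors. Each stimulated tumor lay below each control, as in 7.5% of genes tested for this direction, and stimulated tumor 3 was the nearest to the controls. In all 6 tumors the fitted level was 0.549 times that of the controls, a log2 change of -0.87 ± 0.18 (SE, edgeR adjusted p = 0.196). DESeq2 gave a log2 change of -0.87 with an adjusted p of 0.000552, and edgeR without a filter on low counts gave an adjusted p of 0.00174. Without stimulated tumor 3 the log2 fold change was -1.02 (edgeR adjusted p = 0.0239), and over the alternatives the adjusted p lay between 0.000552 and 0.595. Ceacam2, a close copy that could take reads from Ceacam1, had at most 2 counts in a tumor.
Lgals9 (ENSMUSG00000001123, chr11:78962974-78984946, minus strand), which encodes a secreted lectin of β-galactosides, was at 121, 132 and 130 CPM in the controls. It was at 129, 138 and 104 CPM in the stimulated tumors. The groups overlapped, with stimulated tumor 2 the highest of the 6 and stimulated tumor 3 the lowest. The difference was a log2 fold change of -0.048 ± 0.11 (SE, edgeR adjusted p = 0.919) and turned to 0.052 without stimulated tumor 3.
Havcr2, the gene of TIM-3, was at 5.63, 8.46 and 7.14 CPM in the controls. It was at 13.6, 14.4 and 10.9 CPM in the stimulated tumors, so the groups did not overlap, as in 7.62% of genes tested for this direction. Its log2 fold change was 0.87 (adjusted p = 0.222, edgeR, and 0.0109, DESeq2) in all 6 tumors and 0.97 (edgeR adjusted p = 0.0338) without stimulated tumor 3. Thus Havcr2 lay above, and Ceacam1 below, all controls in each of the 3.

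Tnfrsf14 (ENSMUSG00000042333, chr4:154921933-154928563, minus strand), the gene of HVEM, was at 13.1, 17.5 and 10.6 CPM in the controls and at 22.2, 21.9 and 14.4 CPM in the stimulated tumors. Stimulated tumors 1 and 2 were above every control, and stimulated tumor 3 was between control tumors 1 and 2. The log2 fold change was 0.50 ± 0.22 (SE, edgeR adjusted p = 0.494) and did not pass without stimulated tumor 3 (0.67, standard error 0.19, edgeR adjusted p = 0.115). Its partners were among the lowest transcripts examined. Btla did not exceed 3.44 CPM, Cd160 4.34 CPM and Tnfsf14 3.30 CPM, and none of them passed the threshold in either set of tumors.

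Cd47 and Cd200 restrain myeloid cells. Cd47 (ENSMUSG00000055447, chr16:49800533-49915010, plus strand) had the most counts of the 10 ligands and the smallest spread. It was at 286, 289 and 304 CPM in the controls and at 318, 323 and 335 CPM in the stimulated tumors. Each stimulated tumor was above each control, as in 7.62% of genes tested for this direction, but the difference was small, at 1.11-fold. Its log2 fold change was 0.15 ± 0.069 (SE, edgeR adjusted p = 0.50), and it stayed between 0.12 and 0.17 over the alternatives without passing in any. Cd47 was the only ligand of the 10 for which stimulated tumor 3 was the farthest above the controls.
Sirpa, the receptor of CD47 on macrophages and dendritic cells, was at 127, 146 and 135 CPM in the controls and at 212, 227 and 137 CPM in the stimulated tumors. It passed without stimulated tumor 3 (log2 fold change 0.68, standard error 0.084, edgeR adjusted p = 0.0102) and not in all 6 tumors (0.50, edgeR adjusted p = 0.389). Thbs1, the gene of thrombospondin-1 and a further partner of CD47, was at 57.5 to 64.4 CPM in the controls and 48.4 to 76.8 CPM in the stimulated tumors.
Cd200 (ENSMUSG00000022661, chr16:45382135-45409053, minus strand), which endothelial cells and lymphocytes are known to carry, was at 9.57, 12.2 and 12.1 CPM in the controls. It was at 8.88, 11.4 and 7.17 CPM in the stimulated tumors, with stimulated tumor 3 the lowest of the 6. The log2 fold change was -0.31 ± 0.20 (SE, edgeR adjusted p = 0.661). The summed level of 6 endothelial markers was 213 to 270 CPM in the controls and 229, 198 and 172 CPM in the stimulated tumors, also lowest in stimulated tumor 3, and its part in the Cd200 level was not tested. Cd200r1 was at 7.56 to 9.60 CPM in the controls and at 6.43 to 9.53 CPM in the stimulated tumors.

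Fgl2 (ENSMUSG00000039899, chr5:21372642-21378374, plus strand), a fibrinogen-like protein of macrophages and regulatory T cells, showed the largest rise of the 10 without stimulated tumor 3. It was at 88.8, 167 and 137 CPM in the controls and at 282, 319 and 99.4 CPM in the stimulated tumors. Stimulated tumors 1 and 2 were above every control and stimulated tumor 3 was the second lowest of the 6. The log2 fold change was 0.84 ± 0.40 (SE, edgeR adjusted p = 0.524) in all 6 tumors. It was 1.19 ± 0.21 (SE, edgeR adjusted p = 0.0250), or 2.28-fold, without stimulated tumor 3, and the adjusted p lay between 0.0250 and 0.896 over the alternatives. Fcgr2b, whose product binds FGL2, was abundant at 179 to 215 CPM in the controls and at 214 to 234 CPM in the stimulated tumors, and did not pass in either set (log2 fold change 0.16, adjusted p = 0.602, edgeR, in all 6).

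**Figure D2:**
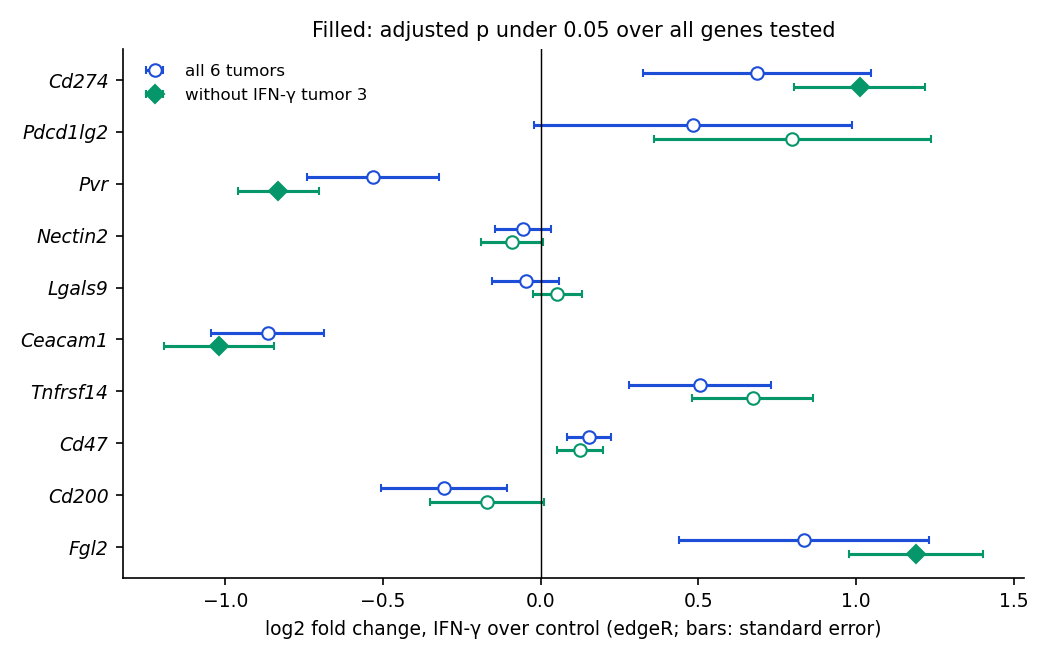
Log2 fold change of each ligand, IFN-γ over control, from edgeR in all 6 tumors (blue) and without IFN-γ tumor 3 (green), with standard errors as bars and filled symbols for an adjusted p under 0.05. Cd274 and Fgl2 (1.01 and 1.19) and Pvr and Ceacam1 (-0.83 and -1.02) are filled without IFN-γ tumor 3, and no ligand is filled in all 6 tumors.

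The ligands known from leukocytes were next set against Ptprc, the gene of the pan-leukocyte protein CD45. Ptprc was at 132, 181 and 175 CPM in the controls and at 252, 236 and 107 CPM in the stimulated tumors, so Ptprc, Cd274 and Fgl2 were all highest in stimulated tumors 1 and 2. Ptprc itself did not pass in all 6 tumors (log2 fold change 0.29, edgeR adjusted p = 0.798) or without stimulated tumor 3 (0.58, edgeR adjusted p = 0.0552). The log2 ratio of Cd274 to Ptprc was -1.89, -1.43 and -1.86 in the controls and -1.28, -1.22 and -1.46 in the stimulated tumors. The difference of the group means was 0.40 (two-sided exact permutation test, p = 0.2, adjusted over 4 ratios 0.4). For Fgl2 the log2 ratio was -0.57, -0.12 and -0.36 in the controls and 0.16, 0.43 and -0.11 in the stimulated tumors. Each stimulated tumor was above each control, by 0.51 on average (exact permutation test, p = 0.1, adjusted 0.4). The smallest p that 3 tumors against 3 allow is 0.1, so this test cannot reach 0.05. Relative to Ptprc, stimulated tumor 3 lay within the control range for Cd274 and just above it for Fgl2. The ratio of Pdcd1lg2 differed by 0.20 (exact permutation test, p = 0.7) and that of Lgals9 by -0.26 (exact permutation test, p = 0.5), both within the spread of the tumors. With the macrophage marker Csf1r in place of Ptprc, the difference was 0.33 for Cd274 and 0.44 for Fgl2 (exact permutation test, p = 0.4 and 0.3). It was 0.13 for Pdcd1lg2 and -0.33 for Lgals9 (exact permutation test, p = 0.9 and 0.1). The readings for Fgl2 and Lgals9 thus depended on the gene they were set against.

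Across the 6 tumors, Fgl2 followed Cd274 most closely of the other 9 ligands. Pearson's r of log2(CPM + 0.5) was 0.990 (exact permutation p = 0.00278, adjusted over 9 relations 0.025) and Spearman's rho was 0.943 (exact permutation p = 0.0167, adjusted 0.15). Without stimulated tumors 1 and 2, the tumors farthest from the median of Cd274, r was 0.977 over the remaining 4. For Tnfrsf14 r was 0.861 (rho 0.829, exact permutation p = 0.0431 and 0.0583) and for Pdcd1lg2 it was 0.804 (rho 0.657, exact permutation p = 0.0472 and 0.175). For Pvr r was -0.846 (rho -0.771, exact permutation p = 0.0444 and 0.103). The adjusted p of r was 0.106 for each of these 3. Without stimulated tumors 1 and 2, r was 0.469 for Tnfrsf14, 0.963 for Pdcd1lg2 and -0.126 for Pvr, so the relations of Pvr and Tnfrsf14 rested on those tumors. Ceacam1 had r of -0.551 (rho -0.543, exact permutation p = 0.258 and 0.297), which became 0.619 without them. The adjusted p of r for Ceacam1 and the remaining ligands (Nectin2, Lgals9, Cd47 and Cd200) ranged from 0.183 to 0.551. With 3 tumors in each group, r was not computed within the groups.
Among 10082 other genes with a mean of at least 10 CPM, the 5 whose levels were most like Cd274 over the 6 tumors were Camk1d, Ubash3b, Gbp9, Aoah and Rrbp1, with r from 0.997 to 0.999. High r was not rare, since 4.46% of these genes had r of at least 0.9, a looser bound than the r of these 5. Gbp9, a guanylate-binding protein of the interferon response, was at 61.5, 105 and 81.3 CPM in the controls and at 150, 137 and 66.7 CPM in the stimulated tumors. Aoah, an enzyme of phagocytes that inactivates bacterial lipopolysaccharide, was at 14.8, 22.6 and 18.5 CPM in the controls and at 29.4, 30.8 and 15.6 CPM in the stimulated tumors.

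**Figure D3:**
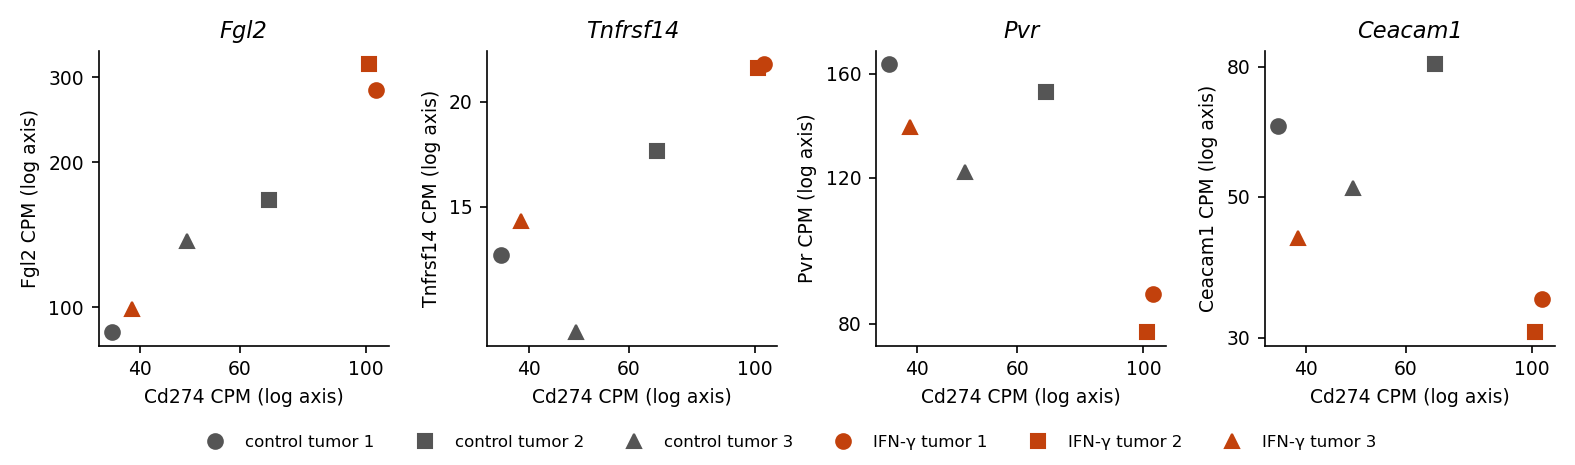
CPM of Fgl2, Tnfrsf14, Pvr and Ceacam1 against CPM of Cd274 (both axes log), with 1 point for each tumor, grey for control and orange for IFN-γ. Fgl2 rises along with Cd274 over all 6 tumors (r 0.990), whereas Pvr and Ceacam1 are lowest in the first and second IFN-γ tumor, and the third lies outside the control range only for Ceacam1 among the 4 genes on the vertical axes.

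Levels of the 10 ligands were compared with each other per length of exon, as TPM, which scales counts by exon length and then to a common total. Lgals9 had the highest mean over the 6 tumors at 172 ± 21.7 TPM (SD, n = 6), followed by Cd47 at 144 ± 5.78 TPM and Fgl2 at 141 ± 74.4 TPM (SD, n = 6). Pvr was at 59.2 ± 18 TPM, Cd274 at 53.4 ± 25.2 TPM and Tnfrsf14 at 33.9 ± 10.1 TPM (SD, n = 6). Ceacam1 and Nectin2 were at 25.9 ± 10.9 and 25.1 ± 1.54 TPM, and Cd200 and Pdcd1lg2 at 9.03 ± 2.03 and 7.93 ± 4.50 TPM (SD, n = 6). Of the 9 pairs of neighbors in this order, Nectin2 over Cd200 was the pair whose ranges over tumors did not overlap. Cd274 exceeded Tnfrsf14 in 6 of 6 tumors. The other 7 pairs changed order in at least 1 tumor. Tnfrsf14 exceeded Ceacam1 in 3 of 6, and Ceacam1 exceeded Nectin2 in only 2 of 6. The order differed between the groups. In the IFN-γ group Fgl2 had the highest mean, at 178 ± 92.8 TPM against 165 ± 29.0 TPM for Lgals9 (SD, n = 3), and Cd274 stood above Pvr, at 64.7 ± 31.3 against 46.5 ± 12.8 TPM (SD, n = 3). Nectin2 stood above Ceacam1 in the IFN-γ group, at 23.9 ± 1.15 against 17.6 ± 2.56 TPM (SD, n = 3). In the control group Ceacam1 stood above Tnfrsf14, at 34.2 ± 9.16 against 28.9 ± 8.65 TPM (SD, n = 3). With the longest transcript as the length, the order over all 6 tumors was the same, and the mean of Pvr was 98.3 TPM.

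The IFN-γ axis was examined next. Among its 14 genes, none passed in all 6 tumors in edgeR, DESeq2 called 1, Socs1, where 1.33% of genes passed, and limma-voom called 0. At an unadjusted p under 0.05 in edgeR 5 were higher, against 5.74% of all genes tested. All 14 had a log2 fold change above 0, as did 50.4% of all genes, and their median was 0.43. Without stimulated tumor 3, where 2.46% of all genes were higher, those that passed included Irf1 and Gbp2, the latter a guanylate-binding protein induced by interferon. Gbp2 was at 209, 376 and 293 CPM in the controls and at 728, 720 and 360 CPM in the stimulated tumors (log2 fold change 1.04, adjusted p = 0.304, edgeR, in all 6, and 1.30, adjusted p = 0.0164, without stimulated tumor 3). Irf1, a transcription factor of the interferon response, was at 140, 211 and 162 CPM in the controls and at 308, 290 and 177 CPM in the stimulated tumors (log2 fold change 0.60, adjusted p = 0.401, edgeR, in all 6). Socs1, a feedback inhibitor of JAK kinases, was above the controls in each stimulated tumor, at 25.3, 23.5 and 27.1 CPM against 17.1 to 17.8 CPM (log2 fold change 0.54, adjusted p = 0.141, edgeR, and 0.0132, DESeq2). The receptor subunit gene Ifngr2, at 61.4, 62.8 and 62.0 CPM, and Jak2, at 108, 119 and 107 CPM, were likewise above every control in each stimulated tumor, with no call in either set. Such a separation in this direction was found for 3 of the 14 axis genes and for 7.62% of all genes tested. Ifng itself was at 0.438, 0.733 and 1.31 CPM in the controls and at 1.57, 2.50 and 0.309 CPM in the stimulated tumors, and the lowest of these came from 5 counts.
Of the 15 binding partners, none passed in all 6 tumors in edgeR, DESeq2 called 2, Rgmb and Havcr2, where 1.33% of genes passed, and limma-voom called 0. At an unadjusted p under 0.05 in edgeR 4 were higher, against 5.74% of all genes. Of the partners, 3 were higher without stimulated tumor 3, against 2.46% of all genes, namely Pdcd1, Havcr2 and Sirpa. The median log2 fold change of the 15 partners was 0.23 in all 6 tumors. Of 13 other inhibitory ligands, 10 were tested. None passed in all 6 tumors in edgeR, DESeq2 or limma-voom. At an unadjusted p under 0.05 in edgeR 3 were higher and 2 lower, against 5.74% and 4.44% of all genes. Without stimulated tumor 3, 2 passed as higher, against 2.46% of all genes. These were H2-T23, a nonclassical class I molecule that presents to NKG2A, and Vsir, the gene of VISTA. H2-T23 was at 107, 145 and 145 CPM in the controls and at 224, 268 and 131 CPM in the stimulated tumors. Vsir had a log2 fold change of 0.33 (edgeR adjusted p = 0.445) in all 6 tumors and 0.45 (edgeR adjusted p = 0.0440) without stimulated tumor 3. Cd276, the gene of B7-H3, was below the controls in each stimulated tumor, at 17.1, 14.5 and 14.7 CPM against 19.8 to 23.3 CPM (log2 fold change -0.47, edgeR adjusted p = 0.268). Nectin4 was above them in each, at 6.68, 6.66 and 5.38 CPM against 4.28 to 4.57 CPM (log2 fold change 0.51, edgeR adjusted p = 0.395). Of all genes tested, 7.62% lay above every control in each stimulated tumor and 7.5% lay below. Vtcn1, Btnl2 and Fgl1 were too low to be tested.
Of 5 genes that act on PD-L1 or CD47 protein, none passed in either set of tumors in edgeR, nor in all 6 in DESeq2 or limma-voom. In edgeR 1 had an unadjusted p under 0.05 in all 6, Cmtm4, against 10.2% of all genes in either direction. Cmtm6, which keeps PD-L1 at the cell surface, lay between 68.3 and 83.8 CPM in all 6 tumors (log2 fold change -0.065, edgeR adjusted p = 0.864). Its relative Cmtm4 was at 120 to 130 CPM against 139 to 152 CPM (log2 fold change 0.19, edgeR adjusted p = 0.427). Hip1r, which directs PD-L1 to lysosomes, was at 37.7 to 44.1 CPM against 44.8 to 47.8 CPM (log2 fold change 0.17, edgeR adjusted p = 0.547).

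**Figure D4:**
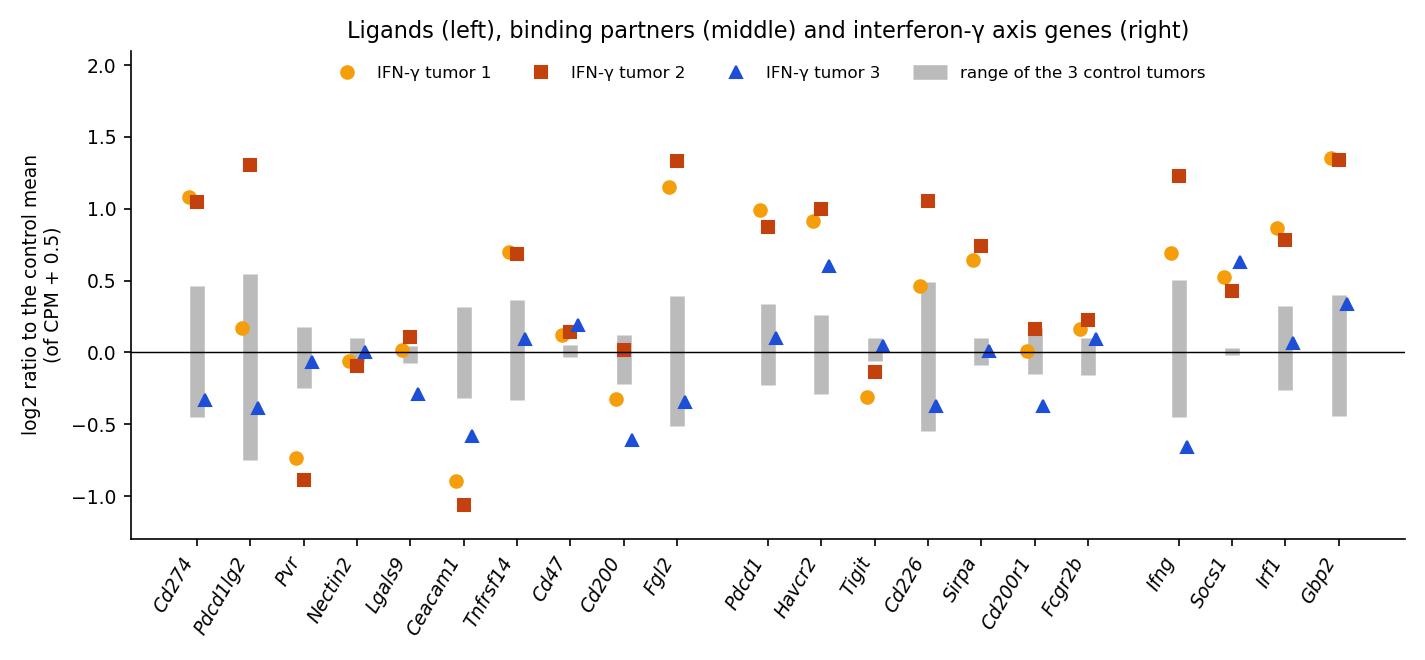
Log2 ratio of each IFN-γ tumor to the mean of the controls (of CPM + 0.5) for the 10 ligands (left), 7 binding partners (middle) and 4 interferon-γ axis genes (right), with grey bars for the range of the 3 controls. IFN-γ tumors 1 and 2 lie near 1.08 and 1.04 for Cd274 and near -0.73 and -0.89 for Pvr, whereas IFN-γ tumor 3 lies within the grey bar for Cd274, Pvr, Fgl2 and Tnfrsf14 and below it for Ceacam1 at -0.58.

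Markers of other cell types differed between the same tumors. Of 12 marker lists, none held a gene past the threshold in all 6 tumors in edgeR or limma-voom. DESeq2 called C1qa and C1qb among the macrophage markers, 4 adipocyte markers and, as lower, the endothelial gene Kdr. In DESeq2 1.33% of all genes passed in either direction and 0.509% passed as lower. At an unadjusted p under 0.05 in edgeR there were 5 higher of the 8 macrophage markers and 5 higher of the 6 adipocyte markers, against 5.74% of all genes. Also higher were 2 of the 6 dendritic cell markers (Xcr1 and Clec9a), 1 of 4 tested neutrophil markers (Csf3r) and 1 of 2 tested keratinocyte markers (Trp63). In the other direction, against 4.44% of all genes, there were 1 macrophage marker (Mrc1), 2 B cell markers (Ms4a1 and Pax5) and 2 endothelial markers (Cdh5 and Kdr). Mrc1, the mannose receptor gene of macrophages, was at 368, 369 and 322 CPM in the stimulated tumors against 391 to 433 CPM in the controls (log2 fold change -0.22, edgeR adjusted p = 0.437). Without stimulated tumor 3, 6 of the 8 macrophage markers were higher, against 2.46% of all genes, among them C1qa, C1qb and Fcgr1. Mrc1 was not called there (log2 fold change -0.16), and the summed macrophage level overlapped between the groups only through stimulated tumor 3. Of 6 adipocyte markers 4 were higher, of 4 tested natural killer cell markers 1, of 5 tested neutrophil markers 1, and of 2 tested keratinocyte markers 1. The keratinocyte marker was Trp63 (log2 fold change 1.23), whereas Krt10 was at -0.58 and was not called. None of the T cell, B cell, dendritic cell, endothelial, fibroblast or skeletal muscle markers passed there. Of the 4 tested colon epithelium markers, 1 was lower without stimulated tumor 3, Krt20, against 0.723% of all genes. Krt20 was at 119 and 113 CPM there against 152 to 174 CPM in the controls, and stimulated tumor 3 had 271 CPM. Klra8 and Cdx2 had 0 counts in every tumor. The summed macrophage level was highest in the tumors in which Cd274 and Fgl2 were highest and Pvr and Ceacam1 lowest. The same held for the summed T cell, natural killer cell and dendritic cell markers and, through Csf3r, for the summed neutrophil markers. Csf3r was at 38.8, 38.7 and 24.0 CPM in stimulated tumors 1, 2 and 3. S100a8, S100a9, Retnlg and Cxcr2 were instead each highest in a control tumor. S100a9 was at 2.09 and 4.64 CPM in stimulated tumors 1 and 2 against 9.13 CPM in control tumor 1. Natural killer cell sums were 61.7, 67.9 and 19.8 CPM in stimulated tumors 1, 2 and 3 against 25.3 to 40.8 CPM in the controls. The part of these levels in the results was not tested.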

How the data were processed

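RNA-seq of 6 tumors was used, each column of the table being matched to its sample by title. The authors deposited whole-number read counts per gene, not normalized. The submitters' processing notes name HISAT2 and mm10. The counter, strandedness and annotation release are not given in the sources used here, so reads of overlapping antisense genes could not be separated. Genes were tested with edgeR 4.0.16 (R 4.3.3) by the quasi-likelihood test after TMM scaling and filterByExpr at its defaults. P-values were adjusted by Benjamini and Hochberg over all genes tested, with a threshold of 0.05. All 10 ligands passed the filter. The standard error is the size of the log2 fold change divided by the square root of F. DESeq2 1.42.0, limma 3.58.1 (voom), other scalings and filters, a replicate block and fits without each tumor were alternatives. Ratios to Ptprc used counts plus 0.5, with the exact permutation test. TPM values used union exon lengths of GENCODE M21 on GRCm38, which held 99.4% of the identifiers.
The members, gene lists, tests and alternatives were chosen with earlier results of these data known. Named genes were the 10 ligands and their partners, the 3 genes of smallest p in each related list, and the 5 genes most like Cd274. Genes past the threshold without stimulated tumor 3, Ifng, Ifngr2, Jak2, single marker genes and the motifs searched were named after their values or sequences were seen. The labels do not state that each tumor came from a separate animal, so p-values measure the spread between these samples. A legend in the study gives fewer IFN-γ tumors for RNA-seq than the labels do and, for another panel, fewer control tumors as well. It does not name which, and all labelled tumors were used here. On simulated counts of 3 tumors against 3 over 15114 genes, with 200 genes changed 2-fold, edgeR recovered 71.0% with 9 false calls. For 3 against 2 over 15487 genes it recovered 69.5% with 17. Each gene was drawn independently, so no simulated tumor stood apart over many genes as stimulated tumor 3 did. These rates therefore do not cover that feature of the data. A gene of the IFN-γ axis list is counted in the totals and not reported here by name.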

Additional observations from a re-analysis of the deposited data

How the results depend on the processing

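Of 130 comparisons of a ligand's log2 fold change with an alternative, 122 kept direction and side of the threshold, 6 passed only under the alternative, and 2 reversed, namely Pdcd1lg2 at -0.20 without stimulated tumor 2 (range without 1 tumor -0.20 to 0.81) and Lgals9 at 0.052 without stimulated tumor 3 (range -0.13 to 0.052). With all tumors, edgeR called 12 genes higher and 5 lower. DESeq2 gave 118 and 73, no filter on low counts 150 and 70, library size only 7 higher, and limma-voom 3 lower. With the replicate block added to the model, 5 were higher and 2 lower, and no ligand was called. Deviations from the group means correlated at -0.24, -0.0047 and -0.22 between same-numbered tumors, and the numbers were not treated as pairing. Leaving out each tumor gave from 4 to 381 higher and from 2 to 112 lower genes, both highest without stimulated tumor 3. Among the ligands it gave from 0 to 2 higher and from 0 to 2 lower, among binding partners from 0 to 3, among other inhibitory ligands from 0 to 2 and among IFN-γ axis genes from 0 to 3, each maximum again without stimulated tumor 3. DESeq2 and the fit with no filter each called 1 ligand, Ceacam1, lower, and 2 binding partners, Rgmb and Havcr2. They called 1 and 2 IFN-γ axis genes, Socs1 in both and Gbp2 with no filter. The ratio of Pdcd1lg2 to Ptprc lay between -0.14 and 0.52 over the fits without 1 tumor, below 0 without control tumor 1 (-0.082) and without stimulated tumor 2 (-0.14). Apart from the tumors used, the cause of these shifts was not tested. The lowest count of a ligand was 36, for Pdcd1lg2, whose standard error of 0.50 exceeded its log2 fold change of 0.48.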
